A study of Mus musculus with 2 samples.

Results

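The genes described here make the very-long-chain fatty acids of skin lipids and put hydroxyl groups on them, and 10 such genes were chosen by name from the 30133 genes on the array. They are the 7 elongases *Elovl1* to *Elovl7*, the fatty acid omega-hydroxylase *Cyp4f39*, the acyl-CoA synthetase *Slc27a4* and the fatty acid 2-hydroxylase *Fa2h*, and 12 probes of the array carry their names. The values come from newborn C57BL/6N mice at postnatal day 0. RNA from the skin of 6 animals was pooled for each genotype, *Pnpla1*+/+ as the wild-type control and *Pnpla1*-/- as the knockout, labelled with the dye Cy3 and hybridized to 1 array per genotype. The knockout mice carried, in every tissue, a targeted *Pnpla1* allele made in C57BL/6N embryonic stem cells, from which the LacZ and Neo cassettes had been removed, and the control mice were their wild-type littermates.

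Skin barrier lipids include acylceramides, ceramides whose fatty acid is unusually long, carries a hydroxyl group at its far (omega) end and is esterified there with linoleic acid, the step that PNPLA1 carries out. Chains are lengthened in the endoplasmic reticulum by a cycle of reactions, and the elongase that runs its first step sets which chains are lengthened. A cytochrome P450 of the CYP4F family then hydroxylates the omega end, and an acyl-CoA synthetase activates free fatty acids so that they can be used. The comparison asks how the RNA of these genes differed when *Pnpla1* was missing.

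The clearest difference was at *Cyp4f39*, which rose 2.26-fold in *Pnpla1*-/- skin. *Elovl4*, the elongase of the longest chains, was 1.77-fold higher on its brighter probe and 1.43-fold higher on the other. The other members with a difference lay between 1.12-fold lower (*Elovl6*) and 1.47-fold higher (*Elovl3*), and *Elovl2* did not pass the background test on either array. With 1 array per genotype there is no replicate, which leaves nothing to test between genotypes, and a difference speaks of these pools only. The rise of *Cyp4f39* was under 2-fold when the arrays were not scaled and when they were centred on spike-in RNA.

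The probes of the members around which the results turn are shown by their first 30 of 60 bases, 5′ to 3′, because the brighter and the dimmer probe of *Elovl4* and of *Elovl1* read different stretches of the same RNA.
Cyp4f39: acaagactccacccttgggatttgattcca
Elovl4, brighter probe: caacatctaaggtagtcacatttacatgca
Elovl4, dimmer probe: tttttacacagattaatttgttatgggcgt
Elovl1, brighter probe: ggcctggaagtcaggctgtgcgctcacttg
Elovl1, dimmer probe: attgcccacctaagtgcctcaggactgcac
The scanner files place the *Elovl4* probes on the minus strand of mm9 at chr9:83673253-83673312 and chr9:83672645-83672704, 608 bases apart. The *Elovl1* probes lie on the plus strand at chr4:118105163-118105222 and chr4:118104741-118104800, 422 bases apart. The *Cyp4f39* probe lies on the plus strand at chr17:32629616-32629675. Whether these stretches are coding or untranslated was not analysed here.

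The promoters of *Elovl4*, *Elovl7* and *Cyp4f39* are shown because they differ in the letters before their start, and because these 3 genes had higher values in *Pnpla1*-/- skin after scaling (with the spike-in, *Elovl7* did not). The windows are the 250 bases before the annotated start of transcription in RefSeq on GRCm38.p6, written along the gene's strand, and capitals mark the GC box GGGCGG read on either strand.
Elovl4: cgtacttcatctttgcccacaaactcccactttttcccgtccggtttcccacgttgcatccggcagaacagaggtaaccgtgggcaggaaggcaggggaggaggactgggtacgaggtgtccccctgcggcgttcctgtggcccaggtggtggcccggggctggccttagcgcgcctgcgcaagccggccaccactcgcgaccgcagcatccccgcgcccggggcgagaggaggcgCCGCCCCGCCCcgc
Elovl7: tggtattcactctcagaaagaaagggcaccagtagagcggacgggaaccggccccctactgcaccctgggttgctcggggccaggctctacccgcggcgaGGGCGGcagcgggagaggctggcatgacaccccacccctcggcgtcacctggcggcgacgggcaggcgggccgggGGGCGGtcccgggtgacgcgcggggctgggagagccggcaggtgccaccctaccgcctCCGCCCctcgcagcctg
Cyp4f39: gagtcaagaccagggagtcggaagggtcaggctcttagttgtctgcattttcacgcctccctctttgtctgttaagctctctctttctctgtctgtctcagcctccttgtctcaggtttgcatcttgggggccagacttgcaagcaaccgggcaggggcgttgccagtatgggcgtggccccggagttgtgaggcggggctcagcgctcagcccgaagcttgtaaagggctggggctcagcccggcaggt
The *Elovl4* window is chr9:83806306-83806555 on the minus strand and holds 2 overlapping GC boxes close to the start. The *Elovl7* window is chr13:108214154-108214403 on the plus strand and holds 3. The *Cyp4f39* window is chr17:32452473-32452722 on the plus strand and holds none. Windows not shown include those of *Slc27a4* (2 GC boxes) and *Elovl5* (0), which were also higher after scaling. The most GC boxes, 5, were in 1 window of *Elovl1*, which was lower, and in 1 of *Elovl2*, which was below background. A link between these letters and the differences was not tested. In all, 10 windows of 8 members were read (all but *Elovl3* and *Fa2h*), and 6 of the windows held a GC box, against 32.7% of all 32851 windows of the same length. The members' windows had a median of 64.6% G and C, against 52.4% over all windows. The E-box CACGTG was found in the *Elovl5* window alone, and 6.02% of all windows hold it. CCAAT was found in windows of *Elovl1* and *Elovl5*, where 1 CCAAT box of *Elovl1* shares letters with a GC box, and 33.8% of all windows hold it. TGACGTCA (CRE), TGANTCA (AP-1), TCACNCCAC (SREBP) and the PPAR direct repeat were not in the members' windows, and 1.55%, 6.75%, 1.05% and 0.0335% of all windows hold them. Both strands were read for every motif, and a match describes letters only.

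Each array carried 43020 spots other than controls, and 71.7% of them passed the scanner's background test for *Pnpla1*+/+ and 73.3% for *Pnpla1*-/- (the spots called well above background below). Intensities below are the scanner's processed intensities in arbitrary units, before scaling. For a difference, each intensity was divided by the 75th percentile of its array (2108 for *Pnpla1*+/+, 1734 for *Pnpla1*-/-), and the log2 values were subtracted as *Pnpla1*-/- minus *Pnpla1*+/+. A gene with several probes was represented by its brightest. A change was called at 2-fold or more, and "higher" and "lower" without that call give the direction of a value only. Brightness depends on the probe as well as on the RNA, so the levels of different probes were not read as relative amounts of RNA. The marker lists name their brightest gene and give a sum of scaled intensities, in which bright probes weigh most.

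Error could be gauged within arrays only. Over 305 probes printed in at least 8 spots, the technical SD of a log2 difference had a median of 0.081. It was 0.13 for probes under an intensity of 500, 0.073 between 500 and 5000 and 0.062 above 5000. The scanner software's own error estimate was about 10% of the intensity for each member above background, which gives an SD of 0.20 for a difference. Neither covers the spread between mice, pools or labelling reactions.

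*Pnpla1* itself had an intensity of 579 on the *Pnpla1*+/+ array against 114 on the *Pnpla1*-/- array, a fall of 4.19-fold. Its probe, at chr17:29026908-29026967 on mm9, still passed the background test on the knockout array, and whether it lies inside the disrupted part was not analysed here. The targeted gene thus moved the way the labels of the arrays say.

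Among the elongases of very long chains, *Elovl4* extends saturated chains to the ultra-long lengths found in acylceramides. Its brighter probe had an intensity of 22229.5 on the *Pnpla1*+/+ array against 32292 on the *Pnpla1*-/- array, a log2 difference of 0.82. Its dimmer probe had 5576.5 and 6564, a log2 difference of 0.52. The probes thus had one direction and differed in size by 0.30, which is larger than the 0.11 that the technical SD gives for a gap between probes and close to the 0.29 that the error estimate gives. Over the 5111 genes with several probes above background, the range of a gene's probes had a median of 0.18. Of all genes with a difference or a bound, 8.93% lay above the brighter *Elovl4* probe.

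*Elovl1* extends saturated and monounsaturated chains and supplies the substrate that *Elovl4* lengthens further. Its brighter probe had an intensity of 82979 on the *Pnpla1*+/+ array against 64301 on the *Pnpla1*-/- array, and its dimmer probe had 9263 and 6443. After scaling the differences were -0.086 and -0.24, so for the brighter probe most of the lower intensity in *Pnpla1*-/- skin went with the lower 75th percentile of that array. The direction of *Elovl1* thus opposed that of *Elovl4*, but the difference of its brighter probe was within the error estimate of 0.20, while that of its dimmer probe was past it.

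*Elovl3* makes saturated and monounsaturated very-long chains and is known for its roles in sebaceous glands, hair and brown fat. It had an intensity of 631 on the *Pnpla1*+/+ array against 761 on the *Pnpla1*-/- array, a log2 difference of 0.55 at chr19:46209762-46209821 (mm9). *Elovl7* prefers saturated long chains and had an intensity of 15267 on the *Pnpla1*+/+ array against 16845 on the *Pnpla1*-/- array, a log2 difference of 0.42 at chr13:109073556-109073615 (mm9). Both were under 2-fold and more than 2 error estimates from 0. Of the 4 elongases of saturated very-long chains, 3 were above 0, with a median of 0.49.

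Among the other elongases, *Elovl6* carries palmitate to stearate and had an intensity of 6772 on the *Pnpla1*+/+ array against 4985 on the *Pnpla1*-/- array. Its log2 difference was -0.16, at chr3:129341248-129341307 (mm9). *Elovl5*, which lengthens polyunsaturated chains, had an intensity of 4389 on the *Pnpla1*+/+ array against 4199 on the *Pnpla1*-/- array. Its log2 difference was 0.22, at chr9:77832205-77832264 (mm9), so that scaling turned a lower intensity into a higher value. *Elovl2*, which also acts on polyunsaturated chains, had intensities of 6.42 and 5.74, below the lowest intensities well above background of 23.9 and 21.7, and no difference was computed.

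*Cyp4f39* is the mouse omega-hydroxylase of ultra-long fatty acids and the counterpart of human CYP4F22, whose loss causes congenital ichthyosis. Its intensity was 729 on the *Pnpla1*+/+ array against 1357 on the *Pnpla1*-/- array. The log2 difference of 1.18 was the largest of the members, and 5.16% of all genes with a difference or a bound lay above it. Its probe and that of *Pnpla1* lie 3.60 Mb apart on chromosome 17 of mm9.

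Other Cyp4f genes of the same stretch of chromosome 17 were measured on the same arrays. *Cyp4f17* had intensities of 368 on the *Pnpla1*+/+ array against 396 on the *Pnpla1*-/- array, a log2 difference of 0.39. *Cyp4f16* had 362 and 385, a log2 difference of 0.37. *Cyp4f13* had 723 and 711, a log2 difference of 0.26. These 3 neighbours lay below *Cyp4f39* in difference and under 2-fold, and *Cyp4f40*, *Cyp4f15* and *Cyp4f14* did not pass the background test.

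*Fa2h* puts the hydroxyl group of alpha-hydroxylated ceramides on the fatty acid. It had an intensity of 1529.6 on the *Pnpla1*+/+ array against 1672 on the *Pnpla1*-/- array, a log2 difference of 0.41 at chr8:113869096-113869155 (mm9). *Slc27a4* encodes FATP4, an acyl-CoA synthetase of very-long chains whose loss gives mice a tight, defective skin barrier. It had an intensity of 273 on the *Pnpla1*+/+ array against 259 on the *Pnpla1*-/- array, a log2 difference of 0.21 at chr2:29672983-29673042 (mm9). *Fa2h* was higher on both scales, whereas *Slc27a4* was higher only after scaling.

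**Figure D1:**
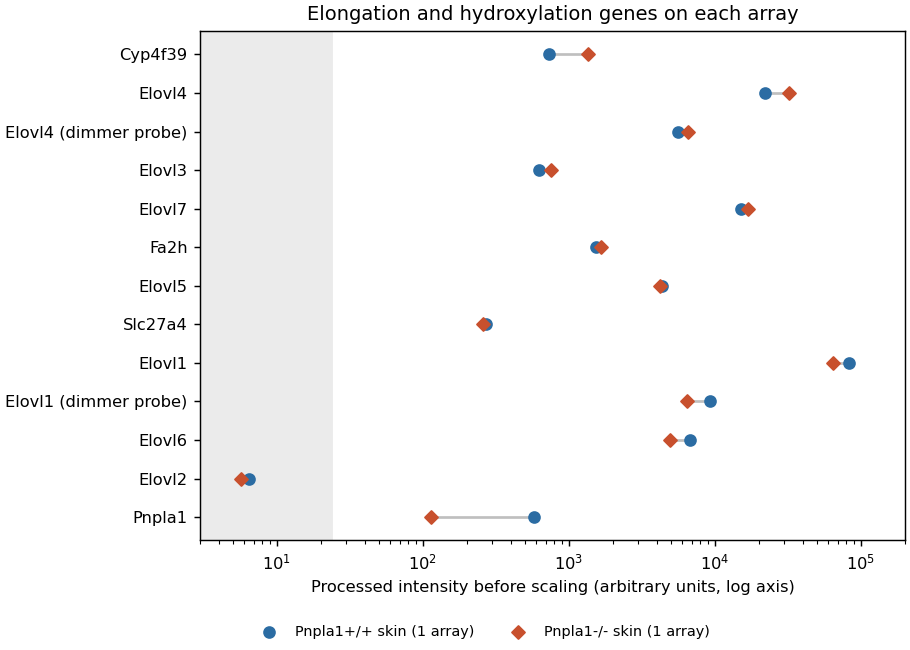
Processed intensity before scaling (arbitrary units, log axis) of each member probe and of *Pnpla1* on the *Pnpla1*+/+ array (circles) and the *Pnpla1*-/- array (diamonds), 1 array each, with grey where intensities lie under the lowest one well above background in *Pnpla1*+/+ skin. *Cyp4f39* moved from 729 to 1357 and *Elovl4* from 22229.5 to 32292, while both probes of *Elovl1* were dimmer in *Pnpla1*-/- skin and *Elovl2* lay in the grey.

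Read together, 9 of the 10 members had a difference. At 2-fold, 1 of the 9 was higher (11.1%), where 6.70% of the 22374 genes with a difference or a bound were higher. None of the 9 was 2-fold lower, where 3.04% of all genes were. Above 0 lay 7 of the 9 (77.8%), against 50.2% of all genes, and the median of the 9 was 0.41 (range -0.16 to 1.18) against 0.0026 over all genes. At 1.5-fold, *Cyp4f39* and *Elovl4* were higher and none was lower, where 13.8% and 9.35% of all genes were. With so few members these counts describe the list and single out nothing about it.

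The order of the differences was *Cyp4f39*, *Elovl4*, *Elovl3*, *Elovl7*, *Fa2h*, *Elovl5*, *Slc27a4*, *Elovl1* and *Elovl6*. The gap of 0.36 between *Cyp4f39* and *Elovl4* was larger than the error of a gap by either measure (0.11 and 0.29). *Elovl7* and *Fa2h* lay 0.013 apart, *Elovl5* and *Slc27a4* 0.012 and *Elovl1* and *Elovl6* 0.074, all within both errors. All 9 differences exceeded the overall technical SD of 0.081 and 7 exceeded 2 of them, all but *Elovl1* and *Elovl6*. With the SD of each probe's intensity range, 9 and 7 did so again, with *Elovl6* past 2 SDs in place of *Slc27a4*. The error estimate was exceeded by 6, and 2 of it by 5, namely *Cyp4f39*, *Elovl4*, *Elovl3*, *Elovl7* and *Fa2h*.

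The direction of some members rested on the scaling. Before scaling, 5 of the 9 had a higher intensity in *Pnpla1*-/- skin. Leaving the arrays unscaled lowered every difference by 0.28, and centring on 8 spike-in probes (E1A, RNA added in a known amount before labelling) lowered every difference by 0.43. *Cyp4f39* then stood between 0.75 and 1.18 over all alternatives, *Elovl4* between 0.39 and 0.82 and *Elovl3* between 0.13 and 0.55, always above 0, while *Elovl1* and *Elovl6* stayed below 0. *Elovl5* and *Slc27a4* turned to below 0 without scaling and with the spike-in, and *Elovl7* (-0.0019) and *Fa2h* (-0.015) came just below 0 with the spike-in. The same choices moved the share of all 2-fold changes that were higher from 68.8% to 41.2% without scaling and 27.9% with the spike-in.

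**Figure D2:**
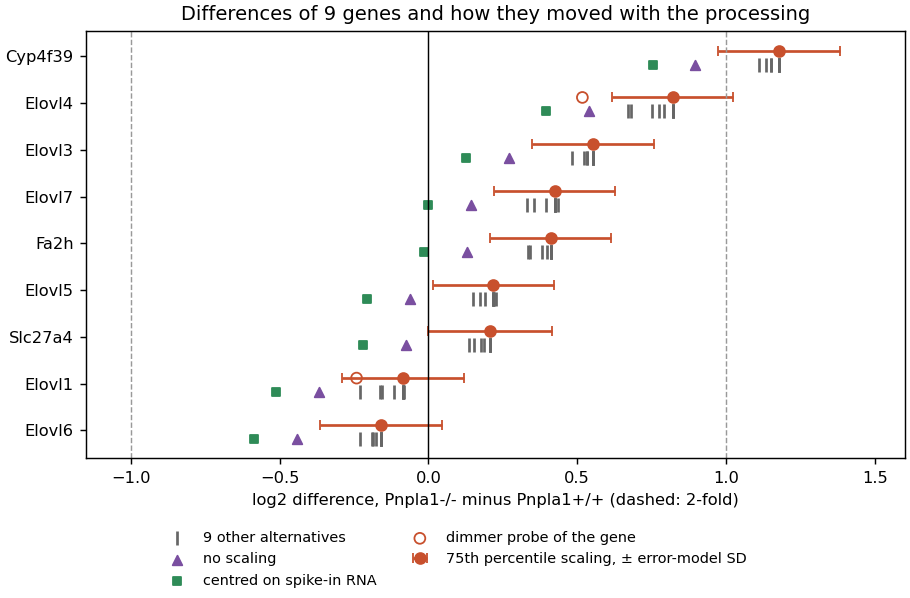
Log2 difference (*Pnpla1*-/- minus *Pnpla1*+/+) of the 9 members, with the scanner's error estimate as bars (± 1 SD of a difference, no spread between mice), dimmer probes as open circles and the alternatives below each. Only *Cyp4f39* (1.18) lies beyond the 2-fold line, and the spike-in values (squares) cross 0 for *Elovl7*, *Fa2h*, *Elovl5* and *Slc27a4*.

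**Figure D3:**
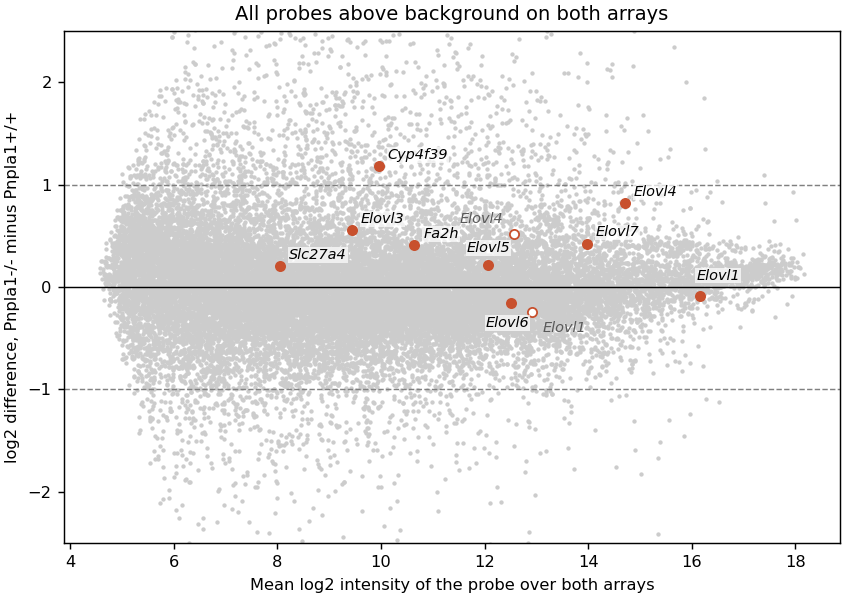
Log2 difference against mean log2 intensity for the 27095 probes above background on both arrays (grey), with the members' brightest probes filled and the dimmer probes of *Elovl4* and *Elovl1* open; 269 probes lie beyond the plotted range of ± 2.5. *Cyp4f39* lies above the dashed 2-fold line and the other members lie between the lines.

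Genes that work beside the elongases in the same cycle were counted in the same way. Over all genes, 6.70% were 2-fold higher, 3.04% were 2-fold lower and 50.2% lay above 0. Of 7 partners (the ketoreductase, the dehydratases and the enoyl reductases), none changed 2-fold on its brightest probe, 4 lay above 0 and the median was 0.14. The dehydratase *Hacd4* had the largest difference, with intensities of 412 on the *Pnpla1*+/+ array against 655 on the *Pnpla1*-/- array, a log2 difference of 0.95 and 1.30 on its other probe. The mean of its probes, 1.13, was past 2-fold. *Hacd3*, another dehydratase, stood at 0.52. The partners' median stood at -0.29 with the spike-in, so its direction was not kept.

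Genes that supply the elongation cycle included some that changed. Of 6 genes for malonyl-CoA and palmitate, 2 rose and 5 lay above 0, where 6.70% and 50.2% of all genes did. Their median was 0.65, or 0.23 with the spike-in. *Thrsp*, a lipogenic protein, rose from 2850.1 to 6122 (log2 difference 1.39), and fatty acid synthase *Fasn* had a difference of 1.15. With the spike-in both were under 2-fold (0.96 and 0.72). Of 15 other acyl-CoA synthetase and transport genes with a difference, none rose, and 6 lay above 0, with a median of -0.078. *Acsl6*, a long-chain acyl-CoA synthetase, fell from 219 to 36.1 (log2 difference -2.32), or by 1.03 with another background correction. The relatives of *Slc27a4* that could be measured, *Slc27a1*, *Slc27a3*, *Slc27a5* and *Slc27a6*, had differences of -0.22, -0.042, -0.42 and -0.47, and *Slc27a2* was not well above background. The probes of *Slc27a5* and *Slc27a6* were dim, and with normexp background correction they stood at -0.14 and -0.26.

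Of 22 other genes of omega-oxidation, 8 did not pass the background test on either array. Of the 14 others, 2 rose and 12 lay above 0, where 6.70% and 50.2% of all genes did. Their median was 0.56, or 0.16 with the spike-in. *Cyp4f18*, a leukotriene hydroxylase of neutrophils, rose from 566 to 1214 (log2 difference 1.38, and 1.43 on its other probe), or 0.96 with the spike-in. *Cyp4a10*, an omega-hydroxylase of medium and long chains, rose from 123 to 222 (1.13), but its other probe gave 0.49. Of the 3 genes that break down 2-hydroxylated and branched acids, the phytanoyl-CoA hydroxylase *Phyh* rose from 1372 to 2588 (1.20), while the lyase *Hacl1* stood at -0.51 and the fatty aldehyde dehydrogenase *Aldh3a2*, which belongs to both lists, at -0.31.

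Of 10 desaturase genes, 4 rose and 7 lay above 0, where 6.70% and 50.2% of all genes did. Their median was 0.27, but -0.015 without scaling and -0.16 with the spike-in, so its direction was not kept, and it was 0.027 when probes below background on an array were left out. The sphingolipid desaturases *Degs2* (1.97) and *Degs1* (15777 to 26982, a log2 difference of 1.06) and the stearoyl-CoA desaturase *Scd1* (1.06) were measured on both arrays. *Fads6* was at least 3.14-fold higher, a bound, since its probe was well above background in *Pnpla1*-/- skin alone, but its other probe gave -0.06 and normexp background correction gave 0.81, under 2-fold.

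Genes of ceramide and acylceramide synthesis, which include those of the sphingoid base, had a median of 0.68. It was 0.48 when the probes of a gene were averaged, 0.40 without scaling and 0.26 with the spike-in. Of 19 with a probe, none fell, 14 lay above 0 and 4 rose, where 3.04%, 50.2% and 6.70% of all genes did. Those that rose were the glucosylceramide synthase *Ugcg* (1.26), the ceramide synthase of ultra-long chains *Cers3* (1.22), the dehydrogenase of acylceramide oxidation *Sdr9c7* (577 to 1108, 1.22) and the epoxide hydrolase *Ephx3* (1628 to 2873, 2.15-fold). The other ceramide synthases with a probe stood lower, *Cers2* at -0.41, *Cers5* at -0.29, *Cers4* at -0.048 and *Cers6* at 0.040. *Cers3*, which uses the products of *Elovl4* and *Cyp4f39*, thus had a difference close to that of *Cyp4f39*, and *Cers3*, *Ugcg*, *Sdr9c7*, *Ephx3*, *Phyh*, *Fasn*, *Cyp4a10*, *Scd1* and *Degs1* were under 2-fold both without scaling and with the spike-in. *Scd1* was also under it with median scaling (0.99), quantile normalization (0.98) and normexp (0.998), *Degs1* with median scaling (0.99) and quantile normalization (0.95), and *Cyp4a10* with normexp (0.86) and the mean of its probes (0.81).

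**Figure D4:**
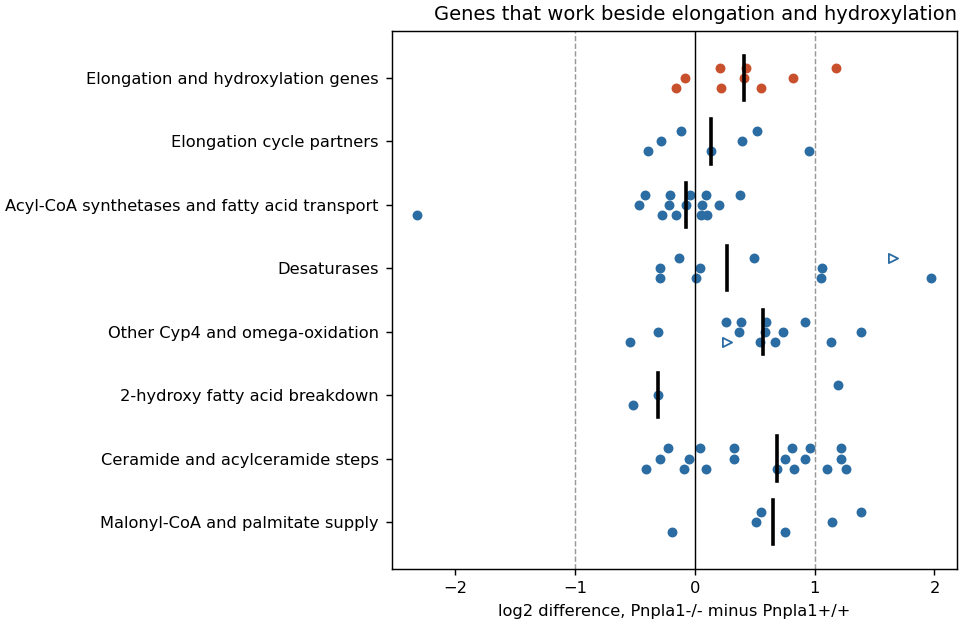
Log2 difference (*Pnpla1*-/- minus *Pnpla1*+/+) of each gene of the members and of the pathway lists, with the median of a list as a black bar, 2-fold as dashed lines and bounds as open triangles. The members have a median of 0.41 and the ceramide list one of 0.68, and *Acsl6* lies apart at -2.32.

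Some markers of cell types differed 2-fold between the genotypes, and the part of cell types in the members' values was not tested. Over all genes, 6.70% were 2-fold higher and 3.04% were 2-fold lower. In whole skin, fewer cells of a type and less RNA per cell cannot be told apart. Of 6 basal keratinocyte markers, *Krt14* was higher (1.35, or 0.92 with the spike-in) and *Krt15* lower (-1.67), the brightest, *Krt5*, stood at 0.22, and their summed scaled intensity went from 191 to 222. Of 7 suprabasal and granular markers, *Flg2* fell by 6.41 on the log2 scale, the brightest, *Krt10*, stood at 0.20, and the sum went from 442 to 449. Keratinocyte markers of both layers were thus well above background on both arrays.

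The glands, hair and fat in which *Elovl3* is known to act were looked at in the same way. None of 8 sebaceous gland markers changed 2-fold. The brightest, *Mgst1*, stood at 0.33 and the largest difference was that of *Dgat2l6* (0.69). Above 0 lay 5 of them and below 0 lay 3, down to *Awat2* (-0.21). Their median was 0.12, or -0.31 with the spike-in, and the sum went from 12.9 to 15.4. Of 8 hair follicle markers, *Krt27* (-1.10), *Shh* (-1.10) and *Lef1* (-1.01) fell, the brightest, *Krt71*, stood at -0.82, *Foxn1* alone lay above 0 (0.52), and the sum went from 75.3 to 41.1. *Shh* was under 2-fold with normexp background correction (-0.87) and *Lef1* with the mean over its probes (-0.99). Of 7 brown adipocyte markers, *Ucp1* rose from 99.2 to 2246 (log2 difference 4.78, or 3.98 with normexp background correction), *Cidea* by 1.61 and *Ppargc1a* by 1.22. The brightest, *Cox8b*, stood at 0.46, *Dio2* alone lay below 0 (-0.43), and the sum went from 8.79 to 16.2. *Ppargc1a* was under 2-fold without scaling (0.94) and with the spike-in (0.80). None of 8 white adipocyte markers changed 2-fold, with *Fabp4* the brightest (0.098), *Retn* the largest (0.87) and *Lep* not well above background. Of the 7 with a difference, 6 lay above 0, and the sum went from 70.9 to 80.6.

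Of 6 leukocyte markers, *Lyz2* rose by 2.35 and *Ptprc* by 1.51, and 5 of the 6 lay above 0. The brightest, *Itgam*, stood at -0.026 on its brightest probe and at 1.14 and 2.84 on the others. The sum went from 8.08 to 10.2, and the brightest *Itgam* probe (intensities of 11846 and 9569) weighs most in it. No fibroblast or skeletal muscle marker changed 2-fold. The fibroblast sum went from 341 to 323, with *Col1a2* the brightest (-0.17) and *Pdgfra* the largest (0.32). The muscle sum went from 308 to 335, with *Myl1* the brightest (-0.085) and *Myh3* the largest (0.57). All 6 markers of each were well above background, so the samples held more than epidermis, the tissue that the deposited design text names, and they are called skin here, as in the labels. The pools also differed in sex-linked genes, with *Xist* at 1.12 and, from the Y chromosome, *Ddx3y* at -2.19 and *Eif2s3y* at -2.19, and the part of sex in the members' values was not tested.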

How the data were processed

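RNA was purified with the RNeasy Mini Kit, labelled with the Low Input Quick Amp kit and put on Agilent's 4x44K v2 mouse expression array. The arrays lay on the same slide and shared a scan, so position on the slide and genotype cannot be told apart. The authors read the scans with Agilent Feature Extraction (11.5.1.1), which gave every spot a background-subtracted intensity on a linear scale (deposited in this form), its error estimate, its raw mean and local background, and flags. The authors also deposited a ratio of each intensity to 1 factor per array, 2109 and 1734, close to the 75th percentile.

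Values are log2 intensity minus log2 of the 75th percentile over the array's non-control spots (Python 3.11.15, pandas 2.3.3, numpy 2.4.6). Repeated spots were averaged on the log2 scale, and outlier-flagged spots (138 for wild type, 82 for knockout) were left out. No spot was saturated. Of 30133 genes, 20680 were well above background on both arrays, 1710 on 1 array and 7743 on neither. A gene well above background on 1 array received a bound where its signal there was the larger (16 had none), set against the dim probe's signal on the other array or, where larger, the weakest signal that passed the background test there. Of 39429 probes, 27508 took their name from an accession, 3544 from a current and 404 from a former symbol in RefSeq on GRCm38.p6, and 7973 kept the name in the files. Probe coordinates are those of the scanner files (mm9), promoter coordinates those of GRCm38.p6.

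No test was possible with 1 array per genotype, and that number limits the precision. Alternatives, run with limma 3.58.1 under R 4.3.3 where it was needed (quantile normalization, normexp with an offset of 50), were no scaling, scaling by the median, the percentile over probes above background on both arrays, the spike-in, the deposited ratios, outliers kept, the mean over all probes, no filter on dim probes, a filter that keeps probes above background on both arrays alone, and 1.5-fold or 3-fold as the threshold. The computation was tested on simulated data. The text names all members, the 2-fold changed genes of each pathway list (the largest differences where fewer than 2 changed), and of each marker list the brightest gene, the largest difference and those below background. The relatives of *Slc27a4*, the Cyp4f neighbours, the other 2-fold changed markers, the other ceramide synthases, *Dio2*, *Foxn1* and the sex-linked genes were added after their values were seen. The members and lists were chosen with earlier results of these data known.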

Additional observations from a re-analysis of the deposited data

How the results depend on the processing

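No paired analysis was possible because each genotype has 1 array. Leaving out a replicate was not possible for the same reason. The median of the members was 0.13 with no scaling and -0.015 with centring on the spike-in, and the count of members at least 2-fold higher was 0 with no scaling, 0 with the spike-in, 2 at a threshold of 1.5-fold and 0 at 3-fold, since *Cyp4f39* alone passed 2-fold. No member was 2-fold lower under the alternatives tried. Over all genes, 6.70% (1499) were higher and 3.04% (681) lower at 2-fold. These shares became 4.47% (998) and 6.37% (1424) with no scaling, 3.74% (829) and 9.68% (2147) with the spike-in, 4.34% (960) and 1.45% (321) with normexp background correction, 10.1% (3041) and 3.67% of 30133 genes with no filter on dim probes, 13.8% (3092) and 9.35% (2092) at 1.5-fold and 3.06% (684) and 1.02% (228) at 3-fold. The first scaling choices shift every gene alike by construction, by 0.28 and 0.43 downwards, and after the 75th percentile scaling the 8 spike-in probes had a mean difference of 0.43 (0.14 before it). Which scaling is right was not tested. *Fads6* turned to -0.061 both with the mean over all probes and with probes above background on both arrays alone, since its second probe then stood for it. Of 759 other values (single genes and medians of lists, 11 alternatives each), 564 moved by less than the technical SD, 193 by more, and the other 2 are those of *Fads6*. Of the 9 members, 5 kept their direction throughout. Dim probes limit what can be said of *Elovl2* and of the Cyp4 genes below background.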
